A study of Mus musculus with 2 samples.

Results

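The mouse miRNA families Mir466, Mir467, Mir669 and Mir297 comprise 81 genes of the 2202 miRNA genes in the M21 gene annotation, chosen by gene name. Of these, 71 lie in 1 intron of Sfmbt2 and 10 lie elsewhere. They were read in microRNA-seq libraries of RNA under 30 nt from hippocampus. The tissue came from adult female mice aged 8 to 10 months of the strain labelled 5xFAD/CAST. The 5xFAD transgenes are driven by the neuronal Thy1 promoter and serve as a model of familial Alzheimer's disease, and CAST usually stands for a wild-derived inbred strain of the subspecies castaneus. The labels give 1 group of 2 biological replicates that share a donor entry, and no other genotype, age or tissue, so no condition was compared and every spread below is that between 2 libraries.

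A miRNA gene is transcribed as part of a longer RNA, from which a hairpin is cut and trimmed to a mature strand that pairs with target mRNAs through its seed, bases 2 to 8. Sfmbt2 encodes a polycomb-group protein. In mouse it is imprinted and expressed from the paternal allele in the early embryo and placenta, where the miRNAs of its intron are abundant and are needed for normal placental growth. The intron holds one of the largest miRNA clusters of the mouse genome, made of tandem copies that are specific to rodents and rich in alternating purine and pyrimidine bases.

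RefSeq's miRNA table (GRCm38.p6) held entries for 9 of the 81 genes, all outside the Sfmbt2 intron, and a mature strand for 8 of them. These mature strands are shown because they were the only ones available. None is from a Mir297 gene, from the intron or from a detected gene, so they need not represent the families. Capitals mark the seed.
mmu-miR-466q: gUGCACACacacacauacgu
mmu-miR-466k: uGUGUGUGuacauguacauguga
mmu-miR-466j: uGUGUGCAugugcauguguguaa
mmu-miR-466i-3p: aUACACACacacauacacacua
mmu-miR-467f: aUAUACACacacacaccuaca
mmu-miR-467g: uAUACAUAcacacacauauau
mmu-miR-467h: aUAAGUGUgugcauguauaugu
mmu-miR-669n: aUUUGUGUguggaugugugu

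The 8 strands carried 8 distinct seeds, so no pair among them was grouped by a shared seed. Only the seed of miR-467h occurred in a further gene of the table, Mir668. The longest stretch in which U and G, or A and C, alternated was 7 to 12 bases, with a median of 9. A stretch of at least 8 bases was present in 6 of 8 strands (75.0%), against 7 of 1730 other mature strands in the table (0.405%), where the median was 3. The minimum of 8 bases was set after the sequences had been seen, and strands of related genes are not independent.

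The libraries held 9962659 and 12761689 reads in replicates 1 and 2, of which 3135960 and 4377622 were counted on the sense strand of a miRNA gene. Levels are given in CPM, the assigned counts scaled to 1000000 per library, as mean ± SD with n = 2. Another 36.3% and 41.7% of all reads stand in a separate line, read from its name as reads with several positions. How the counter treated such reads is not stated, so whether any of them entered a gene's count is not known, which bears on every zero of a gene with copies. Of the neuronal marker genes listed for the tissue check, 5 of 6 reached 10 counts in each library, with Mir132, induced by neuronal activity, at 17397 ± 6067 CPM. The exception was Mir124a-1, a neuron-specific miRNA with several gene copies, at 2 and 8 counts. Of 10 matched markers of pluripotent cells and the early embryo, 0 reached that level; their summed counts were 4 and 9, and Mir290a, Mir291a, Mir294 and Mir295 were at 0. Of the markers of other organs, Mir122 of liver was detected at 33.4 ± 7.07 CPM and Mir206 of striated muscle at 24.5 ± 2.72 CPM. The other listed muscle genes, Mir133a-1 and Mir1a-1, had 0 counts. Their numbered symbols can mark gene copies, so the limit on such zeros may apply to them. The means of Mir122 and Mir206 exceed those of Mir669l, Mir467c, Mir669e and Mir669h, members described below. For Mir669l this order did not hold in replicate 1, where it was at 29.0 CPM, against 28.4 for Mir122 and 26.5 for Mir206.

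Detection in the 4 families was limited to 8 genes, all of them Mir467 or Mir669 genes inside the Sfmbt2 intron. The minimum for detection was 10 counts in each of the libraries, which equals 3.19 and 2.28 CPM. Of the 81 members 8 were detected (9.88%), against 17.4% of all 2202 miRNA genes, and 69 members (85.2%) had 0 sense counts in both libraries, against 65.6% of all genes. By family, 3 of 17 Mir467 genes, 5 of 30 Mir669 genes, 0 of 28 Mir466 genes and 0 of 6 Mir297 genes were detected. The remaining 4 members with any sense count were Mir466g, Mir466n, Mir466q and Mir669f, none above 3 counts in a library.

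Together the 81 genes supplied 3930 counts in replicate 1 and 4741 in replicate 2. This was 0.125% (exact 95% Clopper-Pearson interval 0.121% to 0.129%) and 0.108% (0.105% to 0.111%) of the assigned counts, or 0.117% ± 0.0120. The intervals did not overlap, and they cover counting error only, since amplified reads are not independent molecules. The detected genes held 99.9% of the members' counts in each library. Mir467 genes held 49.2% and 60.8% of them, and Mir669 genes 50.8% and 39.1%. Their exact 95% intervals were 47.6% to 50.7% and 49.2% to 52.3% in replicate 1, and 59.4% to 62.2% and 37.7% to 40.5% in replicate 2. The shares of the families make up nearly all of the same total, so their intervals do not test the families against each other.

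**Figure D1:**
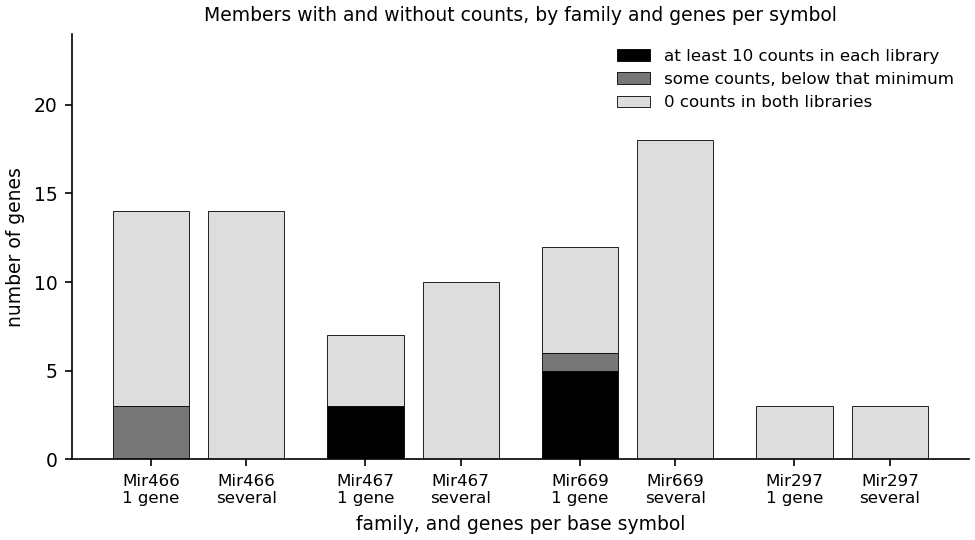
Number of member genes (vertical axis) by family and by whether 1 or several genes share the base symbol, stacked by counts: black for at least 10 counts in each library, dark grey for fewer counts, light grey for 0 counts in both. Black occurs in the single-gene columns of Mir467 (3 genes) and Mir669 (5 genes), and the columns of genes with several copies hold light grey alone.

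Mir467d was the member with the highest mean level and ranked 132 among all miRNA genes. Its counts were 1245 and 2105 in replicates 1 and 2, or 397 and 481 CPM (439 ± 59.3). Its mean lay between those of Mir501 (445 ± 199 CPM) and Mir877 (425 ± 37.5 CPM), gaps smaller than its SD. It lies at chr2:10507630-10507714 (mm10, plus strand; ENSMUSG00000077021.2).

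Mir669c followed at rank 134 and had been the higher of the pair in replicate 1. Its counts were 1463 and 1490, or 467 and 340 CPM (403 ± 89.2). The gap between the means of Mir467d and Mir669c was 35.5 CPM, below the larger SD of 89.2, and their values overlapped between libraries. The gene lies at chr2:10509296-10509404 (ENSMUSG00000076118.1), and its 3p strand has been studied in microglia after stroke.

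Mir467e (chr2:10505721-10505807, ENSMUSG00000076948.2) had 639 and 731 counts, or 204 and 167 CPM (185 ± 26.0). Mir669o (chr2:10514300-10514395, ENSMUSG00000077086.1) had 358 and 247 counts, or 114 and 56.4 CPM (85.3 ± 40.8). The values of these 2 genes did not overlap with each other, nor did those of Mir467e overlap with the higher Mir669c.

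Mir669l (chr2:10468971-10469068, ENSMUSG00000076959.1) had 91 and 77 counts, or 29.0 and 17.6 CPM (23.3 ± 8.08). Mir467c (chr2:10473931-10474027, ENSMUSG00000077049.2) had 48 and 47 counts, or 15.3 and 10.7 CPM (13.0 ± 3.23). Each of them was lower than its neighbour in the order by more than the larger SD, with no overlap of values.

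Mir669e and Mir669h formed the low end of the detected genes and could not be ordered. Mir669e (chr2:10467495-10467613, ENSMUSG00000080653.1) had 43 and 18 counts, or 13.7 and 4.11 CPM (8.91 ± 6.79). Mir669h (chr2:10518155-10518279, ENSMUSG00000080594.1) had 40 and 20 counts, or 12.8 and 4.57 CPM (8.66 ± 5.79). Both were high in replicate 1 and low in replicate 2, and their values overlapped with each other and with those of Mir467c.

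**Figure D2:**
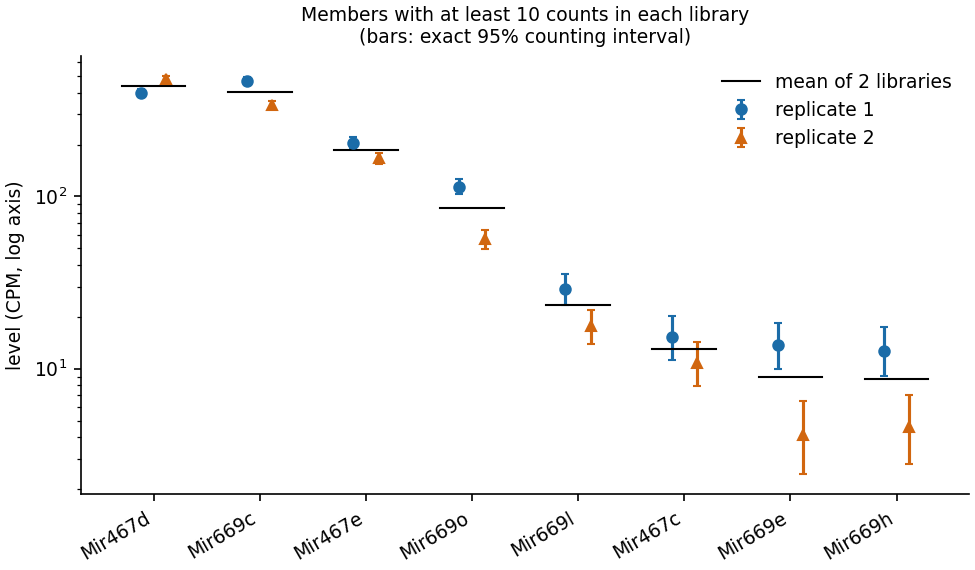
Level in CPM (log axis) of the 8 detected genes in replicate 1 (circles) and replicate 2 (triangles), with exact 95% counting intervals as bars and the mean of the 2 libraries as a line. Levels run from 439 CPM for Mir467d to 8.66 CPM for Mir669h, and replicate 1 is the higher library for every gene except Mir467d.

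Most of the signal came from 3 genes. Mir467d, Mir669c and Mir467e together held 85.2% (exact 95% interval 84.0% to 86.3%) of the members' counts in replicate 1 and 91.2% (90.4% to 92.0%) in replicate 2. A small-RNA read covers a mature strand whatever the hairpin's length, and the annotated lengths of detected genes were 85 to 125 bases. Per 100 annotated bases the levels were 516 CPM for Mir467d, 370 for Mir669c and 213 for Mir467e, down to 6.93 for Mir669h, and all 8 genes kept their place in the order. The median of the 8 was 5.52 on the log2(CPM + 1) scale, against 6.87 for all 384 detected miRNA genes.

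Within the intron, detected genes flanked a long block without counts. The intron spans chr2:10461473-10523944 (62.5 kb, plus strand as Sfmbt2, ENSMUSG00000061186.15) and is intron 10 of one and intron 11 of the other of the 2 annotated transcripts that contain it. It holds 119 annotated miRNA genes, the 71 members and 48 others with predicted-gene (Gm) symbols. Mir669e, Mir669l and Mir467c lie 97.0, 98.5 and 103 kb from the start of Sfmbt2. Then follow 38 consecutive members, from Mir466b-1 to Mir669a-12, with 0 sense counts in both libraries over 29.7 kb. The block was drawn from the counts as the longest run of members without a sense count, so no detected gene could lie in it. Mir467e, at 135 kb, is the next member after them, and Mir467d, Mir669c, Mir669o and Mir669h follow at 137, 139, 144 and 148 kb.

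The block without counts holds tandem units. Mir467, Mir466 and Mir669 genes followed one another in that order 10 times in it. Neighbouring genes of a family started a median of 2454.5 bp apart for Mir467 (2413 to 4880 bp), 2458.5 bp for Mir466 (2409 to 4911 bp) and 2435 bp for Mir669 (297 to 2469 bp). Of its 38 members, 33 share their base symbol with other genes, among them the 10 Mir467a genes. The other 5, Mir669g, Mir669j, Mir669k, Mir466e and Mir467b, have a symbol of their own and were also at 0. With the Gm genes included, 72 neighbouring miRNA genes had no sense count. With 3 counts taken as the limit of a count of 0, reads assigned to the block's members together could reach 0.957 CPM in replicate 1 and 0.685 CPM in replicate 2. Reads that were not assigned are outside that limit.

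The 20 members downstream of the block held 95.3% and 96.9% of the members' counts (96.1% ± 1.13), and the 13 upstream held 4.63% and 3.02% (3.82% ± 1.14). Of these, 5 of 20 and 3 of 13 were detected, beside 17.4% of all miRNA genes. As the block was drawn from zeros, these shares leave out its undetected members and are no result about the flanks. The 3.68 kb from Mir467e to Mir669c, a stretch delimited after the values were seen, contains 6 members. In it Mir466p, Mir466 and Mir297c had 0 counts beside the 3 genes with the highest means.

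**Figure D3:**
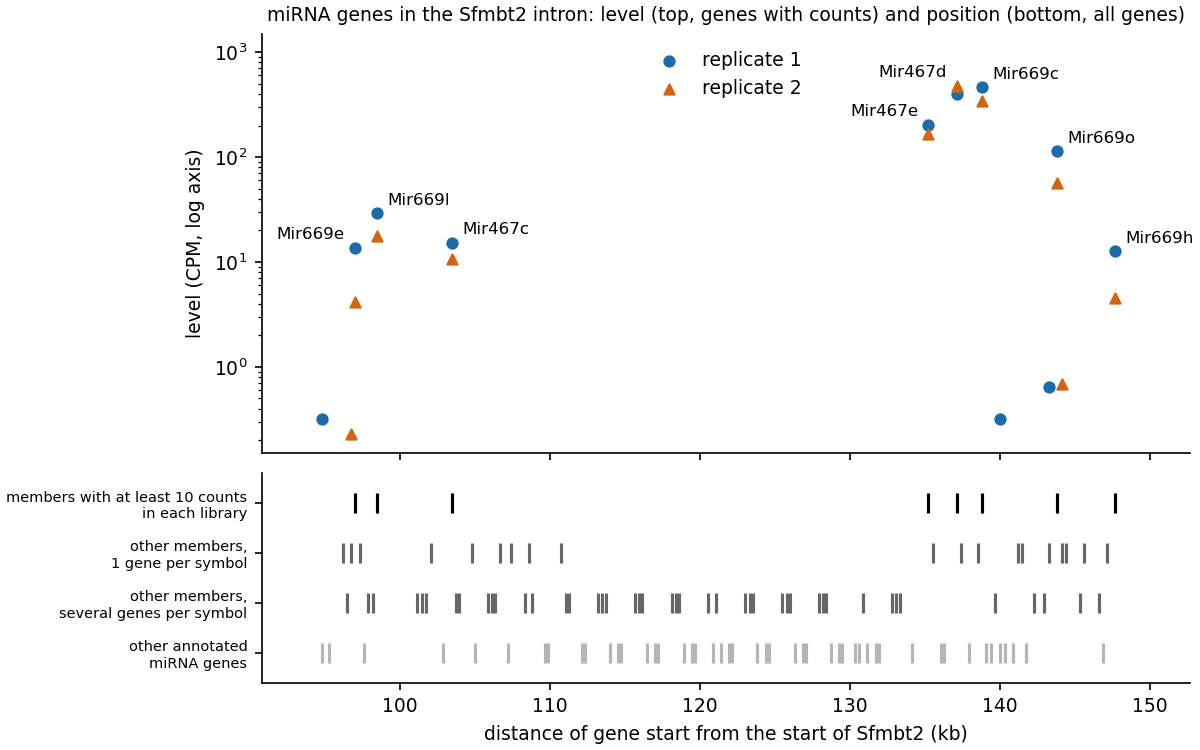
Top, level in CPM (log axis) of intronic miRNA genes with counts in replicate 1 (circles) or replicate 2 (triangles) against distance from the start of Sfmbt2 in kb; bottom, position of all 119 genes by class (ticks). Detected genes stand at 97.0 to 103 kb and 135 to 148 kb, and no point occurs over the tandem copies between them.

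Adjacent hairpins differed sharply in assigned counts. The part of reads with several positions in these differences was not tested. Most of the neighbours named here are Mir466 or Mir297 genes, of which 0 of 28 and 0 of 6 were detected at any place. Mir466, the member with no letter after its number, begins 203 bp after the end of Mir467d and had 0 counts in both libraries. Mir466p, 198 bp after Mir467e, and Mir297c, 182 bp before Mir669c, were likewise at 0. Mir466n and Mir466g flank Mir669o and had 2 and 0 and then 0 and 3 counts in replicates 1 and 2. Mir669f, the undetected Mir669 gene with the most counts, precedes Mir669e by 145 bp and had 0 and 1. Among the immediate member neighbours of the 8 detected genes, none had more than 3 counts in a library.

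Members that share their symbol with other genes had no counts. A gene was counted as having several copies where 2 or more genes share the symbol up to the hyphen and number. Of 45 such members 0 were detected and 0 had a single sense count, while 8 of 36 members with a symbol of their own were detected (22.2%). Outside the 4 families 44 of 102 genes with several copies were detected (43.1%), and 332 of 2019 genes with their own symbol (16.4%). The members with copies and the other genes with copies thus lay on different sides of the 17.4% over all genes. These shares are descriptions of 1 annotation and carry no test, and a symbol of its own does not show that a gene's sequence is unique. The part of reads with several positions in the zero counts was not tested.

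The copied symbols were Mir669a with 12 genes, Mir467a with 10, Mir466b with 8, Mir466f with 4, Mir297a with 3, and Mir466c, Mir669d, Mir669m and Mir669p with 2 each. The Mir669a strand is known as a repressor of the muscle regulator MyoD, and miR-467 as a repressor of thrombospondin-1 translation. The same 3-count limit, for assigned reads alone, applies to each of these groups. Among the 27 single-symbol members in the intron 8 were detected (29.6%), and 22 of these 27 lie beside the block. All 8 detected genes are among the 22 by construction, since the block was drawn from zeros. Members with copies that lie beside the block, 11 in number, were at 0 as well.

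The 48 Gm genes of the intron gave nearly no counts. Their sum was 2 counts in replicate 1 and 0 in replicate 2, as Gm22072 and Gm22239 had 1 count each. Across all annotation 7 of 1021 non-member genes with Gm symbols, these 48 included, were detected (0.686%), beside 0 of 48 in the intron. The share at 0 in both libraries was 94.5% of the 1021 genes and 95.8% of the 48. Low counts were thus shared by most Gm genes, and the shares were not tested against each other.

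Outside the Sfmbt2 intron 0 of 10 members were detected, beside 17.4% of all miRNA genes, and 10 genes are too few to set against that share. Mir466q, in an intron of the kinase gene Tnik at chr3:28419943-28420018 (ENSMUSG00000092990.1), had 1 and 2 counts, or 0.319 and 0.457 CPM. Its mature strand, shown above, has the longest alternating stretch of the set, 12 bases, together with miR-467f. Mir466i, Mir466j, Mir466k, Mir466f-4, Mir467f, Mir467g, Mir467h, Mir669n and Mir297-1 were at 0 in both libraries, and none of them lies in another annotated gene on its strand. Thus 99.97% of the members' counts came from the Sfmbt2 intron. Mir466l, whose strand is known for stabilising interleukin-10 mRNA in macrophages, lies inside the intron and was also at 0.

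The detected members differed between the 2 libraries, mostly toward replicate 1. Each gene's 2 counts were compared by an exact two-sided binomial test at library sizes scaled with TMM, adjusted by Benjamini-Hochberg over the 459 genes with at least 10 counts in either library. The test compares these 2 libraries and takes counting error as its null. It called 7 of the 8 members (87.5%), against 56.9% of all genes tested. Of the 8 members tested, 6 were called higher in replicate 1, against 29.0% of all genes tested, and 1 was called higher in replicate 2, against 27.9%. The median log2 ratio of replicate 1 over replicate 2 was 0.69 for the 8 members and -0.03 for all tested genes.

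The ratio was widest in Mir669e and Mir669h, the detected genes with the fewest counts, though their intervals overlapped that of Mir669o. Mir669e stood at 3.50-fold (log2 1.81, exact 95% interval 0.98 to 2.69, exact binomial adjusted p = 7.83e-06) and Mir669h at 2.93-fold (log2 1.55, 0.74 to 2.40, adjusted p = 0.000145, same exact test). Mir669o, with more counts, stood at 2.12-fold (log2 1.09, 0.85 to 1.33, adjusted p = 2e-19, exact test). Mir669l and Mir669c followed at 1.73-fold and 1.44-fold (adjusted p = 0.000914 and 3.51e-22, exact tests), so all 5 detected Mir669 genes were higher in replicate 1.

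The log2 ratios of the 3 detected Mir467 genes ranged from -0.21 to 0.58. Mir467e was 1.28-fold higher in replicate 1 (log2 0.36, 0.20 to 0.51, exact adjusted p = 1.5e-05). Mir467d was lower in replicate 1, with a log2 ratio of -0.21 (-0.31 to -0.10, exact adjusted p = 0.000151). Mir467c had a log2 ratio of 0.58 and was not called (interval -0.03 to 1.19, exact adjusted p = 0.0947). Summed, Mir467 genes were at 637 ± 30.1 CPM and Mir669 genes at 530 ± 151 CPM, so the Mir669 sum carried most of the spread of the families. Mir126a, the listed marker of endothelium, was at 12521 and 22475 CPM in replicates 1 and 2. The 2 listed choroid plexus markers, both detected, summed to 1202 and 786 CPM. In the same order, smooth muscle markers summed to 8170 and 6864 CPM and neuronal markers to 33145 and 31131 CPM. Oligodendrocyte markers summed to 6793 and 6681 CPM, and microglial and myeloid markers to 460 and 479 CPM. Red blood cell markers summed to 67.3 and 61.2 CPM and striated muscle markers to 26.5 and 22.6 CPM, and Mir122 was at 28.4 and 38.4 CPM. The part of these cell types in the members' difference was not tested.

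**Figure D4:**
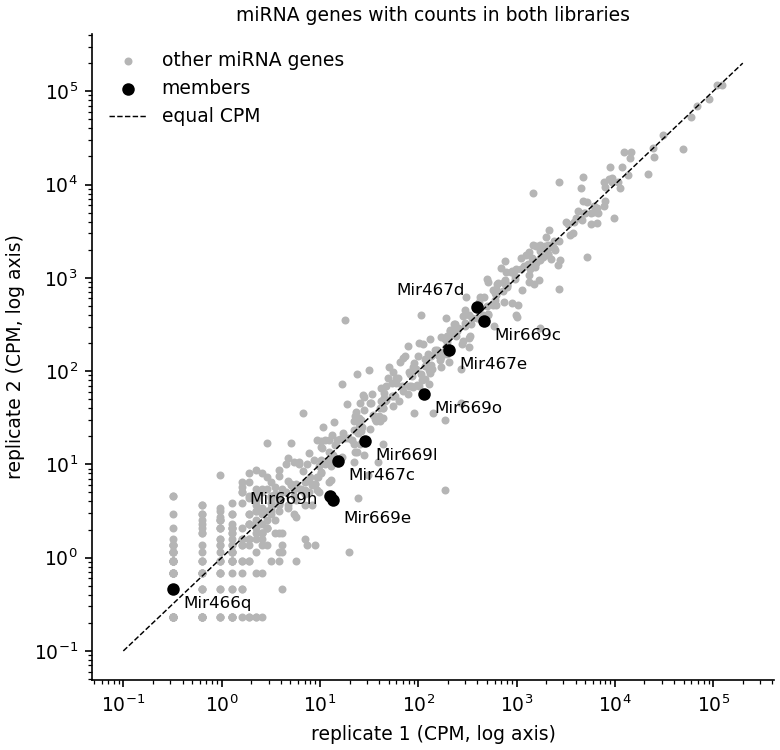
Level in replicate 2 against replicate 1 (both CPM, log axes) for miRNA genes with counts in both libraries, members in black and other genes in grey, with a dashed line at equal CPM. The 5 Mir669 genes, Mir467c and Mir467e lie below the line, and Mir467d (397 and 481 CPM) and the undetected Mir466q (0.319 and 0.457 CPM) lie above it.

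Counts from the opposite strand were nearly absent. Counted without regard to strand, the 8 detected genes had the same counts as on the sense strand. Antisense counts of all 81 members summed to 1 in replicate 1 and 0 in replicate 2, and that count fell in Mir297a-4.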

How the data were processed

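For each library the authors deposited a table of raw read counts with 2202 miRNA genes, 4 summary lines and 3 count columns; mm10 and M21 are named per the file headers in the accompanying notes. Aligner, counter and trimming settings were not given in the sources used here. Sense counts were the strand column with 93.4% and 91.9% of both strand columns. Summary lines (unmapped reads 26.5% and 18.1%, reads outside miRNA genes 5.72% and 5.91%, ambiguous 0) stayed out of CPM and tests. Reads were placed on mm10; what variants of the labelled strain do to the counts was not tested. TMM factors were 0.976 and 1.02 (edgeR 4.0.16, R 4.3.3; 459 genes). The log2 levels used a pseudocount of 1 CPM. Other computation used Python 3.11.15, scipy 1.17.1, numpy 2.4.6, pandas 2.3.3 and matplotlib 3.10.9. Tested on simulated data for replicate 1 against replicate 2 (459 genes, counting error alone), the binomial test called 81% of 2-fold, 95% of 4-fold and 1.54% of unchanged genes. Variation between libraries beyond counting error was not simulated, so these rates do not cover it. The members and lists were chosen with earlier results of these data known. Named are all detected members, the undetected member with the most counts per family, and listed markers; other members named beside them were chosen after their values were seen. Alternatives covered count minimum, strand, denominator, scaling with DESeq2 1.42.0 size factors, pseudocount and each replicate left out. Whether the replicates are separate animals is not stated beyond their label, so the spread may be partly technical.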

Additional observations from a re-analysis of the deposited data

How the results depend on the processing

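No paired analysis was possible because the labels give 1 group. The count of 8 detected members stayed between 6 and 9 over the settings tried, which were minimums of 1, 3, 5 and 20 counts, 10 CPM, counts without regard to strand and either library alone. The genes lost were Mir669 genes: of the 5 detected, 4 remained at 20 counts and 3 at 10 CPM, while all 3 Mir467 genes remained. Members outside the intron rose from 0 to 1, Mir466q, at a minimum of 1 count. The summed share of 0.117% became 0.0383% over all reads of the libraries, by construction of the denominator, and ran from 0.108% to 0.125% with 1 replicate left out. Members called between the libraries were 7, beside 261 of all genes (56.9% of those tested). Among genes with at least 100 counts in either library 4 members were called (3 higher in replicate 1), since fewer members were tested there. Of all genes 215 were called at that minimum. The number tested there is not given, so the 4 members cannot be set against a share. Copies could not be defined by sequence, as entries covered 9 of 81 members, so that check is void. The alternative by genome matches was not run. Depth limits statements to about 3 counts per gene and library.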
